A study of Arabidopsis thaliana with 18 samples.

Results

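A set of 209 Affymetrix probe sets was moved in opposite directions by heat shock and by salt in whole Arabidopsis thaliana seedlings. They were found among 22746 probe sets other than controls, of which 17379 were tested. The signals themselves chose them. The mean log2 signal over the 6 arrays of each treatment, all genotypes together, had to lie at least 1 above the control mean after one treatment and at least 1 below it after the other. The probe set also had to be called Present (above its mismatch background) on all 6 arrays of the treatment that raised it. The 77 probe sets that were higher after heat and lower after NaCl are called the heat-up group here, and the 132 that were lower after heat and higher after NaCl the NaCl-up group. All treatment differences below, within each genotype as well, are therefore descriptions without a test. The members share the 6 control arrays between the heat and the NaCl difference.

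The seedlings were 7 days old and of 3 genotypes: an HSFA6b overexpression line (OE; HSFA6b is a heat shock factor), a line carrying a dominant-negative form of HSFA6b (RD), and the wild type Col-0 (WT). Each was exposed to 37 °C for 1 h (heat), given 150 mM NaCl for 6 h (NaCl), or kept at 22 °C (control), with 2 biological replicates in each of 9 groups and 18 arrays in all. Heat and NaCl thus differ in duration as well as in kind. The promoter of the transgenes and the number of independent lines behind OE and RD are not given in the sources used here, and the level of HSFA6b itself was not analysed here.

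Heat shock factors are transcription factors that bind heat shock elements and switch on chaperone genes when proteins unfold. Class A members activate transcription, and HSFA6b is known in Arabidopsis as a link between the hormone abscisic acid (ABA) and heat tolerance. Salt stress acts through water loss and ion excess, raises ABA, slows growth and changes sugar and amino acid use. Late embryogenesis abundant (LEA) proteins, made in maturing seeds and in dry or salt-stressed tissue, protect cell contents during drying.

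Present calls covered 63.3% to 73.6% of probe sets per array. The tissue label held: all 13 probe sets described as chlorophyll a/b-binding proteins were Present on every array. Of 29 organ and cell type markers, 3 were matched by locus, the root hair expansins EXPA7 and EXPA18 and the guard cell factor FAMA. Summed signals of the 2 expansins ran from 211.7 to 592.2 on heat arrays, 33.8 to 116.8 on NaCl arrays and 301.3 to 532.8 on control arrays. Those of the root patterning genes SHORT-ROOT and SCARECROW, matched by description, ran from 60.4 to 416.6, from 173.7 to 203.4 and from 713.2 to 927.9, in the same order. FAMA had 84.6 to 167.9 on heat arrays, 309.3 to 494.8 on NaCl arrays and 161.7 to 262.7 on control arrays. Root markers were thus lower on the NaCl arrays than in the control, with both expansins Present on no NaCl array. FAMA was higher on the NaCl arrays. SHORT-ROOT and SCARECROW were lower after heat as well (log2 differences of -1.41 and -2.17), while EXPA7 and EXPA18 differed by -0.17 and -0.43. The part of these markers in the results below was not tested. In whole seedlings, fewer cells of a type and less RNA per cell cannot be told apart.

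Among the heat arrays, WT heat 1 stood apart for these members. It was 1 of 3 arrays whose file names carry a second series number (with WT NaCl 1 and OE NaCl 1). Of the 6 heat arrays, it had the highest signal for 62 of the 132 NaCl-up members and the lowest for 20. For the 77 heat-up members it was highest for 6 and lowest for 21. The median NaCl-up member lay 0.81 below the control mean there on the log2 scale, against 1.21 to 1.68 below on the other 5 heat arrays. Without it, 122 of the 132 members were chosen again among 151 in all, and 75 of the 77 heat-up members among 82. Values are given with and without WT heat 1 where it matters. The WT NaCl replicates were as far apart as the WT heat replicates, with correlations of 0.916 and 0.917. In each genotype, NaCl replicate 1 lay nearer to the control mean than replicate 2. Medians of the heat-up members on replicates 1 and 2 were -0.949 and -1.42 in OE, -1.35 and -2.06 in RD, and -1.1 and -1.68 in WT. Those of the NaCl-up members were 1.45 and 1.78, 1.68 and 1.79, and 1.39 and 1.82, in the same order.

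**Figure D1:**
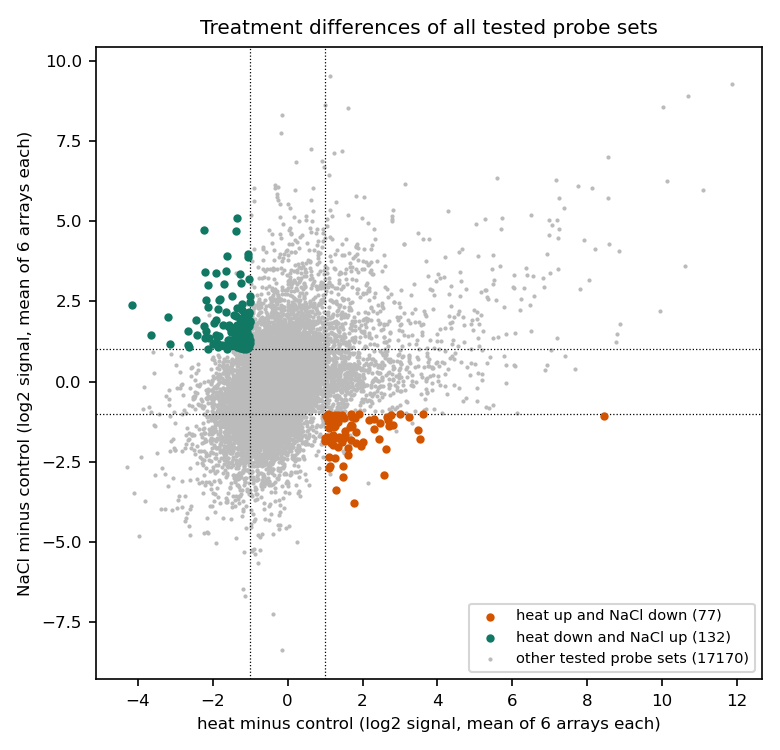
Each point is a tested probe set, placed by its heat minus control difference (x axis, log2 signal, mean of 6 arrays each) and its NaCl minus control difference (y axis, the same unit). Dotted lines mark differences of 1 and -1. The 77 heat-up members fill the lower right corner and the 132 NaCl-up members the upper left.

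Opposite movement was uncommon. Of the tested probe sets, 7.1% were at least 1 higher after heat and 18.1% at least 1 lower after NaCl, and 0.443% met both conditions with the detection call. For the other direction, 13% were at least 1 lower after heat, 11.6% at least 1 higher after NaCl, and 0.76% were members. The median of all tested probe sets was -0.29 for heat and -0.185 for NaCl. The heat-up group had a median difference of 1.47 for heat (range 1.00 to 8.45) and -1.41 for NaCl (-3.80 to -1.01). The NaCl-up group had a median of -1.34 for heat (-4.16 to -1.01) and 1.56 for NaCl (1.01 to 5.11).

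The members were mostly present before treatment. Among heat-up members, 52 were Present on all 6 control arrays and 4 on none. Among NaCl-up members, 97 were Present on all 6 and 11 on none. For members Present on no control array, the lowering is read from control signals below background. On NaCl arrays, 24 heat-up members had no Present call at all, and on heat arrays 27 NaCl-up members had none. These counts include members with no Present call on control arrays either, such as AT1G48720 and AT1G61550. Where the dimmer side of a comparison has no Present call, a fold is a lower bound. It is taken against each array's dimmest Present signal where the measured one lies under it. In the heat-up group, 27 members had all 6 heat arrays above and all 6 NaCl arrays below all 6 control arrays, an order shown by 0.386% of all tested probe sets. In the NaCl-up group, 46 members had the mirrored order, shown by 1.32% of all tested probe sets. The rule used these same values, so nothing further is read from the counts.

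The choice could be read on arrays it did not use. Applied to the replicate 1 arrays alone, the rule chose 50 heat-up probe sets, and 46 of them had both signs again on the replicate 2 arrays, where 33 passed both differences of 1. Among all tested probe sets, 13.2% had those signs and 0.754% passed both differences on the replicate 2 arrays. The 127 NaCl-up probe sets chosen on replicate 1 kept both signs in 106 cases and passed both differences in 46, against 20.7% and 1.01% of all tested probe sets. Chosen on replicate 2 and read on replicate 1, 103 of 120 heat-up and 137 of 173 NaCl-up probe sets had both signs. Fewer passed both differences in that reading, 35 heat-up (29.2%) and 50 NaCl-up (28.9%), against 66% and 36.2% in the first. Chosen on the WT arrays alone, 78 heat-up and 124 NaCl-up probe sets kept both signs in OE in 63 and 103 cases, and in RD in 67 and 91 cases. These sets share no arrays with the ones they were read on.

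**Figure D2:**
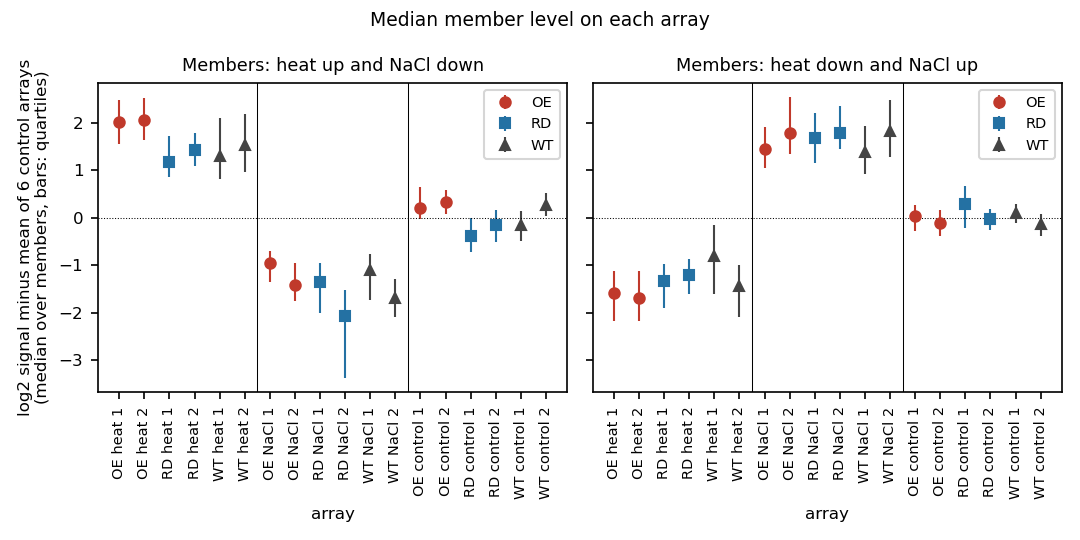
Each marker is the median over members of the log2 signal minus the mean of the 6 control arrays, on 1 of 18 arrays (x axis), with bars from the lower to the upper quartile of the members. Left, the 77 heat-up members; right, the 132 NaCl-up members. OE heat arrays lie highest on the left (2.01 and 2.05), and WT heat 1 lies nearest to 0 among the heat arrays on the right (-0.81).

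Per genotype, the median heat difference of the heat-up members was 1.68 in OE, 1.68 in RD and 1.40 in WT, and the median NaCl difference was -1.36, -1.37 and -1.46. Both differences reached 1 in the chosen direction for 55 heat-up members in OE, 50 in RD and 42 in WT, and for 13 in all 3 genotypes. The median heat difference of the NaCl-up members was -1.57 in OE, -1.41 in RD and -1.16 in WT, and the median NaCl difference was 1.72, 1.57 and 1.57. Both reached 1 for 104 NaCl-up members in OE, 84 in RD and 58 in WT, and for 23 in all 3. Within a genotype, 15 members had 1 difference with the other sign, of 1254 differences in all, and 7 of these were heat differences of NaCl-up members in WT. The widest were 253060_at after heat in WT (1.22, on signals below background) and IAA29 after NaCl in RD (-1.13). The WT heat median was -1.46 on WT heat 2 and -0.76 on WT heat 1, each against the 2 WT control arrays.

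Genes of seed maturation stood in the heat-up group. Of 66 tested probe sets described as LEA, dehydrin, cold or dehydration proteins, 5 were heat-up members (7.58%) and none NaCl-up members, beside 0.443% of all tested probe sets. The list as a whole went both ways after NaCl, with 14 probe sets at least 1 higher and 16 at least 1 lower, and 8 were at least 1 higher after both treatments. A wider seed maturation list, drawn up after the values were seen, held 9 heat-up members of 76 tested probe sets and 1 NaCl-up member, the dormancy-associated 245668_at. AT3G53040, an LEA protein, gave signals of 1579.7 to 4074 on heat arrays (median 1943.7), 78.2 to 195 on NaCl arrays (median 122.75) and 111.6 to 815 on control arrays (median 414.15). Its heat difference was 2.72 ± 0.24 (SE) and its NaCl difference -1.38, with all 6 heat arrays above every control array, while NaCl and control arrays overlapped.

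AT1G54870, described as dormancy related, ran from 714.5 to 2608.3 on heat arrays (median 1109.55), from 23 to 191.1 on NaCl arrays (median 114.25) and from 172.3 to 867.1 on control arrays (median 393.15). Its 2 OE heat arrays (2608.3 and 2537.2) stood above the other 4, of which the highest was RD heat 2 (1218.9). AT4G21020, similar to a desiccation protein of the resurrection plant Craterostigma, had 317.8 to 838.5 on heat arrays, 7.4 to 60.3 on NaCl arrays and 74.2 to 266.4 on control arrays, with no overlap between treatments. The other members of this kind were AT5G44310, AT1G72100, AT3G15670, AT3G17520, a probe set for the small LEA protein ATEM6 (263385_at), known to respond to ABA, and one for a protein like soybean PM38 (249937_at). AT3G15670, an LEA76 homologue, differed by 1.28 after heat and by -1.13 after NaCl, and ATEM6 by 1.51 and -1.12. The 249937_at signal was not Present on any NaCl array and was at least 3.38-fold lower there than in the control.

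**Figure D3:**
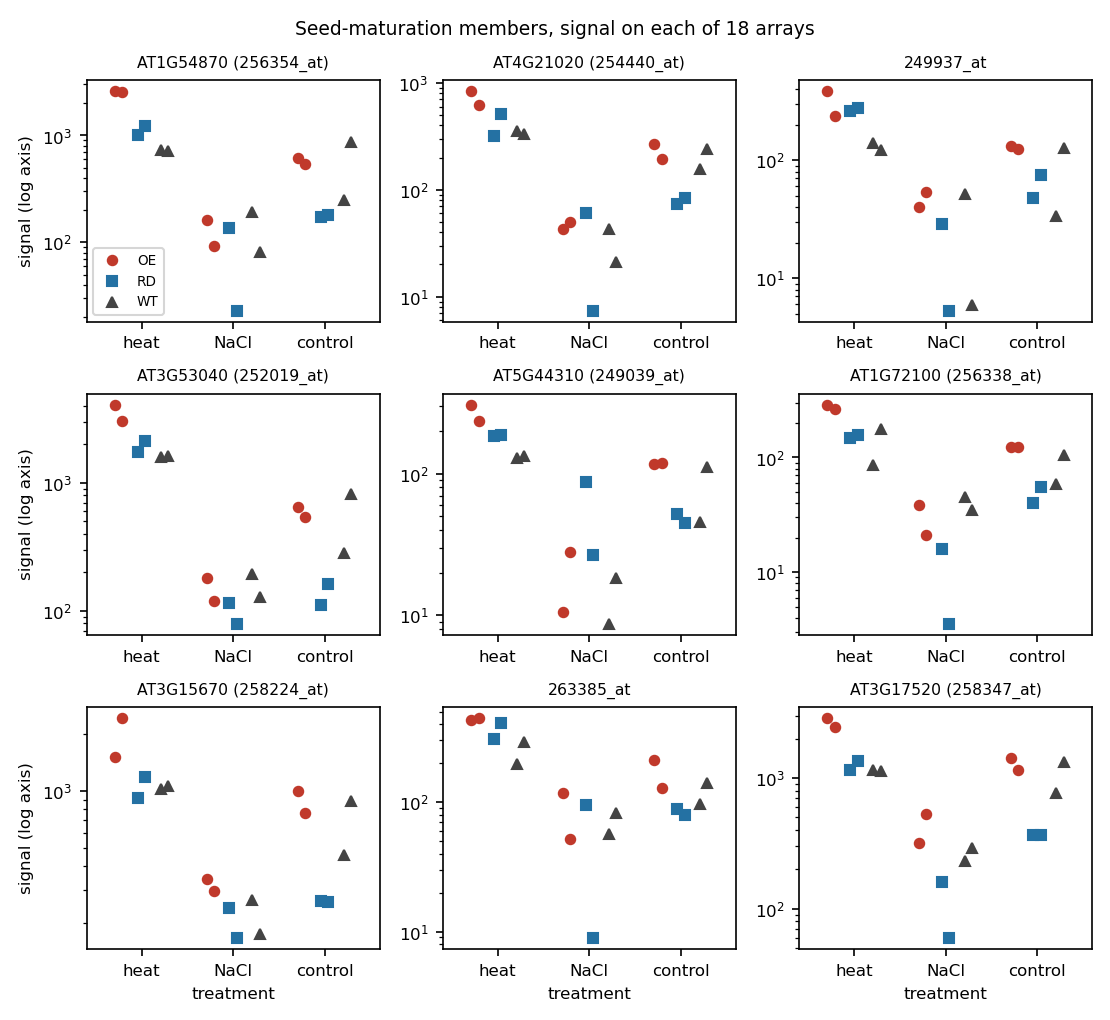
Signals (log axis) of the 9 seed maturation members of the heat-up group on each of the 18 arrays, by treatment (x axis) and genotype (marker); each marker is 1 array. In every panel the heat arrays lie above the NaCl arrays. The OE control arrays lie above the RD control arrays in each panel, and the 2 WT control arrays are spread apart, as for AT1G54870 (249.3 and 867.1).

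These 9 seed maturation members were higher in OE than in WT as a mean over the 3 treatments, by 0.45 to 1.20 (median 0.64), and lower in RD than in WT for 7 of 9 (median -0.53), although none passed limma's adjusted p of 0.05 in either contrast. Their heat difference was larger in OE and in RD than in WT for all 9, by a median of 0.51 for OE and 1.29 for RD, and none of these differences passed either. Of all tested probe sets, 51.2% had a larger heat difference in OE and 51.6% in RD. The median heat difference was 1.23 in OE, 2.09 in RD and 0.83 in WT. RD control signals were low for most of them, and AT3G53040 gave 111.6 and 161.5 on RD control arrays, against 283.9 and 815 on WT control arrays. Defining seed storage genes moved with part of this pattern. Signals of 15 probe sets for oleosins, cruciferins and 2S albumins, none of them a member, summed to 2783.9 to 6194.1 on heat arrays, 471.7 to 1154.1 on NaCl arrays and 2196.3 to 7064.2 on control arrays, and 8 of them, the 4 for 2S albumins included, were Present on no control array. Their sums were lower on every NaCl array than on any control array, and their part in the result was not tested.

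Chaperones are the classic products of the heat response. Of the 150 tested probe sets described as heat shock proteins or chaperones, 66 were at least 1 higher after heat, 49 at least 1 higher after NaCl and 13 at least 1 lower after NaCl. The list held 1 heat-up member (0.667%, near the 0.443% of all tested probe sets), Cpn60beta3, a subunit of the plastid chaperonin that helps fold newly imported proteins. It ran from 636.7 to 1237.4 on heat arrays, from 94.9 to 238.1 on NaCl arrays and from 224.1 to 601.7 on control arrays. A list of organelle folding enzymes, with 36 tested probe sets, was drawn up after the values were seen. Of these, 11 were at least 1 higher after heat and 17 at least 1 lower after NaCl. The list held 4 heat-up members, a count not compared with that of all tested probe sets because the values were known. They were Cpn60beta3, AT4G16660 (described as HSP-like, in words the chaperone list did not match), a calnexin-like protein (247494_at) and a protein disulfide isomerase (267605_at), the last 2 working on secretory proteins in the endoplasmic reticulum. AT4G16660 had 1737.6 to 4154.8 on heat arrays, 129.8 to 226.6 on NaCl arrays and 271.3 to 462 on control arrays, and the calnexin-like probe set 3943.2 to 5858.3, 564.5 to 1213.7 and 1404.7 to 2235.8. In both, the 3 treatments did not overlap.

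Mitochondrial genome transcripts formed a further set. A list made after the values were seen held 34 tested probe sets named for mitochondrial genes or open reading frames. Of these, 28 were at least 1 higher after heat, 6 at least 1 higher after NaCl and 3 at least 1 lower after NaCl. The list held 3 heat-up members, a count not compared with that of all tested probe sets because the values were known. The list's median NaCl difference was 0.535, so the 3 members do not follow most of the list. The gene ccb452, for cytochrome c maturation, had 5071.7 to 6155.8 on heat arrays, 134.3 to 1192.6 on NaCl arrays and 322.1 to 769.6 on control arrays. A single NaCl array, RD NaCl 1 (1192.6), lay above every control array, the other 5 NaCl arrays at 134.3 to 201.1. A probe set for nad1, a subunit of respiratory complex I, had 809.3 to 1303.7 on heat arrays, 46.6 to 144.7 on NaCl arrays and 114.6 to 309.6 on control arrays. The open reading frame orf153b (244923_s_at) differed by 3.48 after heat and by -1.52 after NaCl. A second nad1 probe set fell just outside the rule, with 3.15 and -0.99. Probe sets ending in s_at can match several transcripts, and the mitochondrial genome has a copy in the nucleus, so the source of these signals is uncertain.

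Single members of the heat-up group had other roles. FaTA, a plastid thioesterase that releases fatty acids from their carrier, ran from 338.2 to 1100.3 on heat arrays, from 26 to 116.7 on NaCl arrays and from 195.2 to 270.6 on control arrays. AT3G54940, a cysteine proteinase, had 943.2 to 3036.8, 28.6 to 230.3 and 318.7 to 902.8 in the same order. In both genes the 3 treatments did not overlap. The transcription factor bZIP58 differed by 1.25 after heat and by -1.06 after NaCl, and the lectin receptor kinase-like AT1G48720 by 8.45 and -1.06. AT1G48720 was Present on no NaCl or control array (signals of 0 to 5.3 on both), so its NaCl difference compares values below background, and heat arrays (145 to 283.3) were at least 27-fold brighter than the control.

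Many of the strongest heat-up members have no described function. Of the 77, 45 carry a description as unknown, hypothetical or the like, as do 57 of the 132 NaCl-up members. So do 9215 of the 17379 tested probe sets. Of those 9215, 0.488% were heat-up members, near the 0.443% of all, and 0.619% NaCl-up members, beside 0.76% of all. This lack of a description does not set the heat-up group apart. The hypothetical 257334_at had 3572.5 to 5955.2 on heat arrays, 104.8 to 465.8 on NaCl arrays and 519.9 to 1037 on control arrays. AT1G21560 had 1634.6 to 2793.9, 93.6 to 323.4 and 452.2 to 711, and AT1G29470 had 5905.1 to 18569.6, 875.1 to 2247.1 and 3467.5 to 3955.1. None of these 3 overlapped between treatments. AT5G14020 differed by 3.54 after heat and was at least 3.09-fold lower after NaCl than in the control.

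Genes of amino acid breakdown were in the NaCl-up group. Of 176 tested probe sets on the list of amino acid and nitrogen metabolism, 7 were NaCl-up members (3.98%) and none heat-up members. Of all tested probe sets, 0.76% were NaCl-up members. Over the whole list, 28 probe sets were at least 1 higher after NaCl and 46 at least 1 lower. A narrower list of amino acid breakdown, made after the values were seen, held 6 NaCl-up members of 47 tested. MCCA, a subunit of methylcrotonyl-CoA carboxylase in mitochondrial leucine breakdown, ran from 406.6 to 4372.4 on heat arrays (median 709.65), from 6770.5 to 14217.3 on NaCl arrays (median 9962.75) and from 1292.3 to 6892.6 on control arrays (median 2009.05). The highest heat value was that of WT heat 1, the other 5 heat arrays at 406.6 to 826.1, and the highest control value that of RD control 1.

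Other members of the list act in the same pathway or in the breakdown of other amino acids. The 264524_at probe set, similar to branched-chain aminotransferases that take the first step, had 46.2 to 1242.6 on heat arrays, 923.7 to 5798.6 on NaCl arrays and 214.5 to 2748.3 on control arrays, again highest for heat on WT heat 1 and for control on RD control 1. ETFQO, which passes electrons from this pathway to ubiquinone, differed by -1.05 after heat and by 1.28 after NaCl. AT5G38710, a proline oxidase for the first step of proline breakdown, ran from 18 to 106.3 on heat arrays, from 282 to 655.8 on NaCl arrays and from 98.9 to 239.4 on control arrays. A beta-alanine-pyruvate aminotransferase (267035_at) differed by -1.31 and 1.52. For all 6 members, WT heat 1 was the highest heat array. Their median heat difference was -1.37 with it and -1.71 without it. Against the WT control arrays, their median was -1.45 on WT heat 2 and 0.09 on WT heat 1, where 3 of the 6 were below 0. The median heat difference was -0.42 in WT, against -1.65 in OE and -1.74 in RD. The lowering in WT thus rested mainly on WT heat 2.

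**Figure D4:**
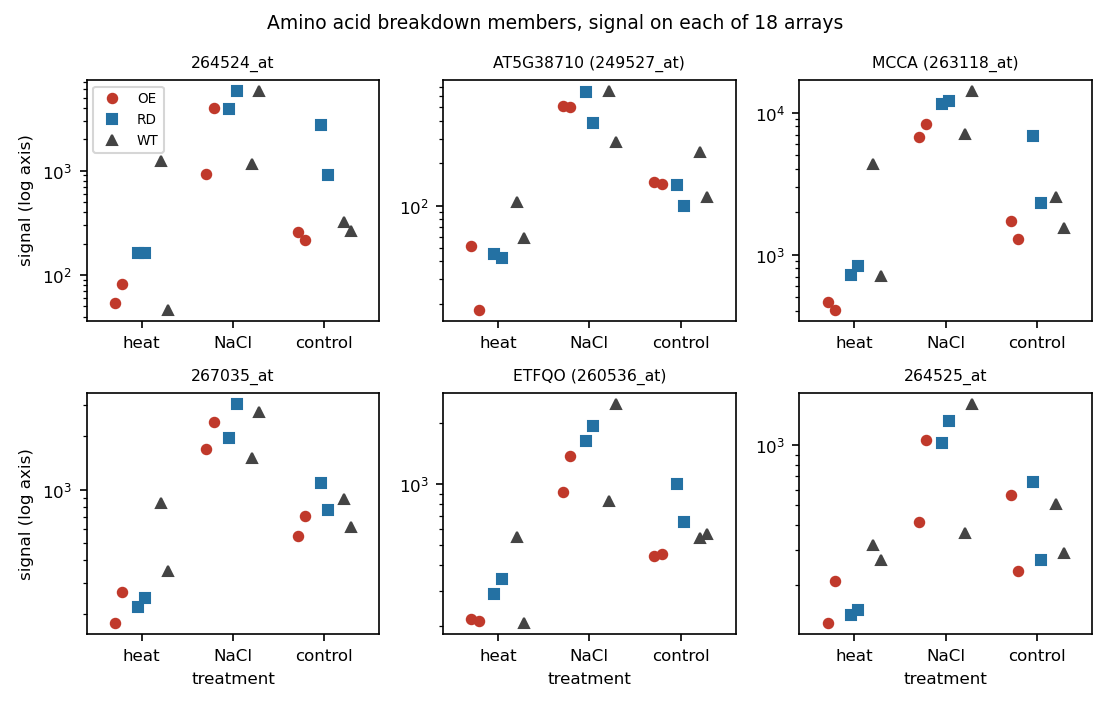
Signals (log axis) of the 6 amino acid breakdown members of the NaCl-up group on each of the 18 arrays, by treatment (x axis) and genotype (marker); each marker is 1 array. In every panel 1 WT heat array, WT heat 1, is the highest of the heat arrays. For MCCA it lies at 4372.4, above 5 of the 6 control arrays.

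Sugar uptake and sugar-splitting genes formed a similar set, with 9 NaCl-up members of 69 tested probe sets on a list made after the values were seen and no heat-up member. Because the values were known when the list was made, this count is not compared with that of all tested probe sets. Over the whole list, 13 probe sets were at least 1 higher after NaCl and 18 at least 1 lower. STP4, a monosaccharide transporter of the plasma membrane (257939_at), had 306.2 to 746.2 on heat arrays, 2633.5 to 3823.1 on NaCl arrays and 845 to 1700.3 on control arrays. A trehalase (254197_at), which splits trehalose, had 99.4 to 254.7, 798.9 to 1357.1 and 301.1 to 554.8 in the same order, and in both the treatments did not overlap. A sugar transporter-like probe set (246238_at) differed by -2.24 after heat and by 1.73 after NaCl, and the aldose epimerase AT3G47800 by -1.39 and 1.498. The 2 beta-galactosidase-like probe sets were among them. The 247954_at signal differed by -1.03 after heat and by 1.72 after NaCl, but in WT alone its heat difference was 0.05, since WT heat 1 (5837.6) lay above every control array. The median heat difference of the 9 was -1.27 with WT heat 1 and -1.43 without it. Against the WT control arrays, their median was -0.35 on WT heat 1 and -1.47 on WT heat 2.

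Hormone genes of the NaCl-up group belonged to auxin and ethylene. WES1, a GH3 enzyme that joins auxin to amino acids, ran from 352.7 to 1517.5 on heat arrays, from 3169.2 to 9153 on NaCl arrays and from 871.8 to 2413.4 on control arrays. A probe set described as IAA5, an early auxin-response repressor (261766_at), had 8.3 to 80.9, 257.4 to 2429.4 and 42.9 to 147.4 in the same order. A further auxin-regulated probe set, 267461_at, was the plainest case of the WT heat 1 array: 21530.7 there, against 268.9 to 566.2 on the other 5 heat arrays. The list of auxin genes held 3 NaCl-up members of 167 tested (1.8%, beside 0.76% of all). Over the whole list, 22 probe sets were at least 1 higher after NaCl and 34 at least 1 lower. Outside the list stood IAA29, an Aux/IAA repressor by its symbol. It had 203.5 and 420.6 on RD NaCl arrays, against 773.8 and 532.2 on RD control arrays, while OE and WT NaCl arrays (1662.3 to 4972.2) lay above all control arrays (296.9 to 1158.9). Ethylene receptors, which hold the ethylene pathway off until the hormone binds, gave 2 NaCl-up members of 4 tested probe sets on a list made after the values were seen. The probe set described as ERS (245098_at) had 248.3 to 1138.2 on heat arrays, 2171.7 to 5092 on NaCl arrays and 1145.3 to 1882.5 on control arrays, and did not overlap between treatments. ERS2 (263653_at) differed by -1.83 after heat and by 1.42 after NaCl.

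Transcription factors were among the NaCl-up members. The list of AP2 and ethylene response factors held 4 NaCl-up members of 93 tested (4.3%), the ERS probe set included, and 1 heat-up member (1.08%). Over that list, 45 probe sets were at least 1 higher after NaCl and 6 at least 1 lower. For bZIP and homeobox factors these were 3 and 1 of 103 (2.91% and 0.971%), for NAC 1 and 0 of 48 and for WRKY 0 and 0 of 27. Of all tested probe sets, 0.76% were NaCl-up and 0.443% heat-up members, and counts this small are not read further. WRKY6, described as an unknown protein and so outside the WRKY list, had 51 to 101.1 on heat arrays, 485.4 to 751.7 on NaCl arrays and 96.6 to 222.7 on control arrays. The homeodomain factor ATHB-6 (264006_at), a known component of ABA signalling, had 379.8 to 692.9 on heat arrays, 3211.1 to 4400.1 on NaCl arrays and 993.2 to 2009.1 on control arrays. Its relative ATHB-12 (251272_at), known to respond to ABA and water deficit, differed by -1.06 after heat and by 2.07 after NaCl, and its heat and control arrays overlapped. Its NaCl signals were 490.7 to 1189.8 on replicate 1 arrays and 3068.9 to 5260.9 on replicate 2 arrays. WT NaCl 1 (490.7) lay within the control range of 257.4 to 543.3. A NAM/CUC2-like NAC factor (249467_at) ran from 35.3 to 131.5 on heat arrays, from 633.5 to 4511.4 on NaCl arrays and from 323.3 to 451.9 on control arrays. For this factor the replicate 1 NaCl arrays (633.5 in WT, 976.3 in OE and 1546.9 in RD) lay below all replicate 2 NaCl arrays (3028.1 to 4511.4). WT NaCl 1 and OE NaCl 1 are of the second array series, but RD NaCl 1 is of the first. The 3 treatments did not overlap. AT1G75490, similar to the dehydration factor DREB2A, was Present on no heat array and at least 2.33-fold lower there than in the control. Its NaCl signals were 679.5 to 1774.9, against 169.8 to 342.6 in the control. A C2H2 zinc finger probe set (266010_at) had the highest NaCl difference of all members, 5.11. It was at least 31.5-fold brighter than in the control, where it was Present on no array. Its heat difference of -1.36 sets heat signals of 1 to 13.2 against control signals below background (5.3 to 23). In WT alone that difference was 0.73.

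Receptor kinases and defence proteins were also in the NaCl-up group. Of 931 tested probe sets described as kinases, 13 were NaCl-up members (1.4%, beside 0.76% of all) and 5 heat-up members (0.537%, near the 0.443% of all). A receptor kinase list made after the values were seen held 9 NaCl-up members and 1 heat-up member of 285 tested. After NaCl, 50 of its probe sets were at least 1 higher and 76 at least 1 lower. On the kinase list these were 140 and 158. A receptor protein kinase (248895_at) ran from 2.3 to 154.4 on heat arrays, from 498.3 to 1247.4 on NaCl arrays and from 92.2 to 335.2 on control arrays. AT1G61550 was Present on no heat or control array, so its difference of -2.44 after heat compares values below background. On NaCl arrays it had 59.3 to 88.1 and was at least 3.77-fold brighter than in the control. BIK1, a kinase that relays immune receptor signals, differed by -1.04 after heat and by 1.29 after NaCl, and B120, described as a serine/threonine kinase, by -2.18 and 1.39. Among 283 tested probe sets of the defence list, 7 were NaCl-up members (2.47%), 1 of them an ABC transporter matched only by the words of its description, and 2 were heat-up members (0.707%), the jacalin lectin AT3G21380 and AT1G48720. LOV1, a resistance protein of the nucleotide-binding type, was Present on no heat array and was at least 2.49-fold lower there than in the control. Its NaCl signals of 115.1 to 181.3 stood above its control signals of 48.8 to 78.8.

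Members with roles in transport and protein turnover are given last. The list of the ubiquitin system and proteasome held 3 NaCl-up members of 303 tested (0.99%). The protease list, which AT1G32970 lies outside, held 1 of 238 (0.42%). The first share was near the 0.76% of all tested probe sets and the second below it. ATL8, a RING finger ubiquitin ligase, ran from 50.2 to 200.1 on heat arrays, from 605.2 to 1571.8 on NaCl arrays and from 202.4 to 811.6 on control arrays. The proline transporter 2 probe set (251752_at) had 59.6 to 151.3, 667 to 1061.7 and 188.8 to 321.6 in the same order, with no overlap between treatments. Of 511 tested probe sets described as transporters or channels, 9 were NaCl-up members (1.76%, beside 0.76% of all). Another 3 were heat-up members (0.587%, near the 0.443% of all), 1 of these 3 being FaTA, matched through the word carrier. Over that list, 58 probe sets were at least 1 higher after NaCl and 84 at least 1 lower. AT1G32970, a subtilase, was Present on no heat or control array and was at least 26.5-fold brighter on NaCl arrays (278.9 to 790.4) than in the control. The cysteine proteinase AT1G29090 had 155.8 to 913.5 on NaCl arrays and 13.2 to 128.9 on control arrays. It was Present on no heat array and at least 3.46-fold lower there than in the control. The lists read the array's descriptions only, so a member named by its symbol can lie outside the list of its family, as WRKY6, IAA29, IQD22 (a calmodulin-binding protein family) and the heat-up member ASF1B do. ASF1B, a histone chaperone, had 641.1 to 2154.6 on heat arrays, 134.2 to 236.2 on NaCl arrays and 269 to 473.2 on control arrays, with no overlap between treatments.

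The genotypes were compared in contrasts that the rule did not use, fitted with limma over all tested probe sets. For OE against WT as a mean over the 3 treatments, no member passed an adjusted p of 0.05 in either direction, and 2 of all tested probe sets did (0.0115%). At an unadjusted p under 0.05, limma counted 16 of 77 heat-up and 17 of 132 NaCl-up members, against 4.75% of all tested probe sets. Of the heat-up members, 66 of 77 were higher in OE than in WT (median 0.32), and of the NaCl-up members 48 of 132 were (median -0.16), while 55.7% of all tested probe sets were higher. For RD against WT, 5 of 77 heat-up members were lower and none higher, and 1 of 132 NaCl-up members was higher and none lower. Of all tested probe sets, 0.892% passed, 0.184% being higher in RD and 0.708% lower. With the replicate number as a block within each treatment, chosen after seeing the data, 17 members passed, these 6 included. At an unadjusted p under 0.05, limma counted 26 heat-up and 21 NaCl-up members, against 11.6% of all tested probe sets. In RD, 29 of 77 heat-up members were higher than in WT (median -0.31) and 70 of 132 NaCl-up members were (median 0.02), while 49.2% of all tested probe sets were. Members were not tested as a list, and probe sets that move together are not independent.

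AT2G20720, a predicted protein of unknown function, was lowest in RD. Its heat signals were 125.2 and 157.1 in RD, against 418.7 and 432.6 in WT, and its OE heat signals were 516.6 and 599.9. RD minus WT was -1.69 ± 0.19 (SE, limma, adjusted p = 0.000587). AT1G58170, a dirigent-like protein of a family that guides lignan coupling, had 205.2 and 204 on RD heat arrays, against 699.8 and 870.8 in WT, with 1646.1 and 1529.6 in OE. RD minus WT was -1.53 ± 0.19 (SE, limma, adjusted p = 0.00157). Under heat and in the control alike, both RD arrays of these 2 genes lay below both WT arrays. All 26 alternative settings kept both calls.

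A RAS-type small GTP-binding protein (263876_at) had 175.2 and 182.4 on RD heat arrays, against 489.4 and 590.5 in WT, and 918.8 and 962.2 in OE. On control arrays it had 131.9 and 138.8 in RD, against 248.9 and 209.6 in WT. RD minus WT was -0.999 ± 0.16 (SE, limma, adjusted p = 0.00791), kept in all 26 alternatives. TET2, a tetraspanin of the plasma membrane, had 572 and 962 on RD heat arrays, against 1149.9 and 1772.6 in WT, and 147.3 and 144 on RD control arrays, against 402.5 and 383.8 in WT. Its difference of -0.99 ± 0.19 (SE, limma, adjusted p = 0.0256) passed in 20 of 26 alternatives. In these 4 genes RD lay below WT in each treatment group mean.

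The remaining pair was close to the threshold. The unknown protein 262947_at, among the brightest members, had 19991.6 and 19114.6 on RD heat arrays, against 34647.6 and 32384.9 in WT. RD minus WT was -0.76 ± 0.16 (SE, limma, adjusted p = 0.0492), and it passed in 7 of 26 alternatives. The receptor kinase AT4G08850 of the NaCl-up group had 378.5 and 438.1 on RD heat arrays, against 162.8 and 192.1 in WT. RD minus WT was 0.74 ± 0.16 (SE, limma, adjusted p = 0.0492), and it passed in 6 of 26 alternatives.

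**Figure D5:**
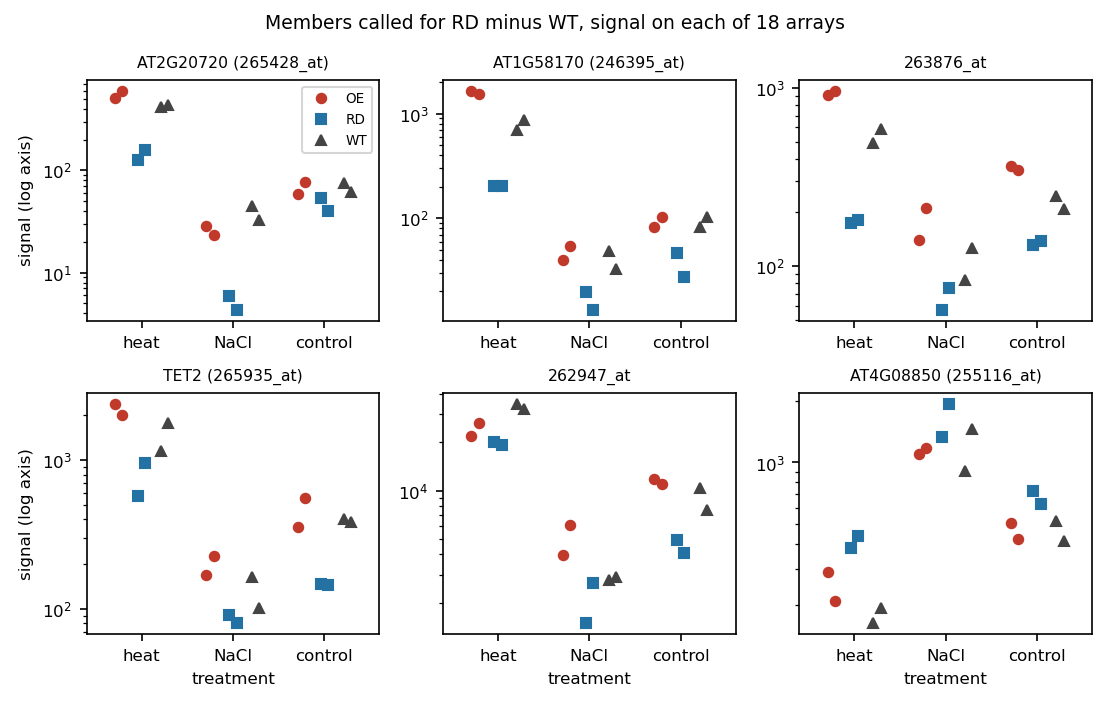
Signals (log axis) on each of the 18 arrays, by treatment (x axis) and genotype (marker), of the 6 members that passed an adjusted p of 0.05 for RD minus WT; each marker is 1 array. In the 5 heat-up members the RD heat arrays lie lowest of the heat arrays. In AT4G08850 both RD heat arrays (378.5 and 438.1) lie above the OE and WT heat arrays.

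Whether heat or NaCl acted differently on the members in OE or RD than in WT was tested in 6 further contrasts, and no member passed in any of them. Over all tested probe sets, limma called 2 for the heat response of OE against WT (0.0115%), 1 for that of RD (0.00575%), none for the NaCl response of OE (0%) and 3 for that of RD (0.0173%). For heat minus NaCl, 0 were called for OE (0%) and 6 for RD (0.0345%). At an unadjusted p under 0.05, the heat response of OE differed from WT for 5 heat-up and 17 NaCl-up members (6.16% of all tested probe sets), and that of RD for 10 and 17 (6.36%). The NaCl response of OE did so for no member in either direction (1.1%), and that of RD for 7 and 2 (2.87%). Heat minus NaCl did so for 7 and 20 in OE (6.28%) and for 7 and 13 in RD (5.81%). With 2 arrays in each group, these contrasts are the least precise of those made here.

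The threshold cut through a continuum. In the heat-up direction, 18 members had a smaller difference of 1 to 1.1, and 25 probe sets with the same detection call lay at 0.9 to 1. Just inside were AT1G27990 (1.00 and -1.78 for heat and NaCl), AT3G17520 (1.00 and -1.84) and 263876_at (1.01 and -1.08). Just outside, beside the nad1 probe set above, were AT2G07749 (6.12 and -0.99) and RALFL22, a small peptide of the RALF family (0.99 and -1.71). In the NaCl-up direction, 44 members lay at 1 to 1.1 and 41 probe sets at 0.9 to 1. AT1G49520 (-1.01 and 2.47), the pectinesterase 262225_at (-1.10 and 1.01) and AT4G08850 (-1.01 and 1.29) were just inside. The probe sets 267596_s_at (-1.40 and 0.99), AT4G18260 (-1.06 and 0.99) and AT2G40420 (-0.99 and 1.095) were just outside.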

How the data were processed

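Signals of 18 arrays in 9 groups of 2 were used. Per the submitters' processing notes, the authors ran MAS5 (version not given in the sources used here). They deposited for each probe set an intensity on a linear scale, with the detection call and its detection p-value. A deposited value table held the same intensities. Signals were set to at least 0.1 and taken to log2. A group-means model in limma 3.58.1 (R 4.3.3; eBayes with intensity trend, 9 residual degrees of freedom) took the 17379 probe sets with a Present call on each array of some group, with Benjamini-Hochberg adjustment within each of 8 genotype contrasts and a threshold of 0.05. The fit was tested on simulated data. The labels call the replicates biological. The number of arrays limits the precision.

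Members and lists were chosen with earlier results of these data known. The 32 description lists were joined by 7 more, and markers matched by description, after the values were seen. Named were the 15 members per direction with 1 gene and the largest smaller difference, up to 4 members per list, members past a genotype threshold and the 3 probe sets on each side of the rule; AT1G72100, ASF1B, B120, BIK1, ETFQO, IAA29, IQD22, WRKY6 and 253060_at were added after their values were seen. Genes came from the platform table through RefSeq gene numbers: 44 heat-up members had 1 gene and 33 none, and 63 NaCl-up members had 1, 3 several and 66 none. No genome build was named, so no coordinates are given, and promoter sequences were not analysed here. Python 3.11.15, pandas 2.3.3, numpy 2.4.6 and matplotlib 3.10.9 were used. Same-numbered arrays deviated together within NaCl and within control (all 3 pairs of genotypes over 0.1 in each) but less so within heat (1 of 3) and across treatments, so a block over all arrays and one within each treatment were both run. Scaling, floor, filter, averaging, array series and left-out arrays were varied.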

Additional observations from a re-analysis of the deposited data

How the results depend on the processing

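With a difference of 1.5 in place of 1, 16 heat-up and 26 NaCl-up members were left, and with OE arrays alone the rule gave 253 NaCl-up members. Leaving out a replicate or an array gave 50 to 120 heat-up members and 127 to 173 NaCl-up members. Quantile normalization gave 75 and 88, of which 56 and 84 were members before. For RD against WT, 6 members passed. Array series as a block gave 10, the first array series alone 13, and leaving out 1 array 3 to 11. The contrasts in which no member passed gave, with 1 array left out, 0 to 4 for OE against WT, 0 to 5 for the heat response of OE, 0 to 6 for that of RD, 0 to 5 for heat minus NaCl in OE and 0 to 2 in RD. WT heat 2 was the array whose absence gave the highest counts. WT heat 1 is then the only WT heat array, so these counts cannot separate genotype from that array. The first series alone gave 1 for the heat response of RD and 2 for heat minus NaCl in RD. The NaCl responses stayed at 0 members under each setting run.

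With a replicate block, 6 members passed for RD against WT and 0 in the other 7 contrasts. Of 36 pairs of same-numbered arrays, 11 had deviations correlating over 0.1 (range -0.0762 to 0.627), and they did so mainly within a treatment: correlations were 0.291 to 0.627 within NaCl, 0.3 to 0.4 within control and -0.0549 to 0.122 within heat. A replicate block within each treatment, chosen after seeing the data, gave 17 members for RD against WT, the 6 included, and 0 in the other 7 contrasts.

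Among the members named by the naming rule, single differences turned round in 10 cases. Members added after their values were seen, such as IAA29 and 253060_at above, are not counted here. Without replicate 2, the NaCl difference was 0.295 for 260061_at and -0.035 for 251066_at (-3.25 and 2.33 without replicate 1). In RD alone, the NaCl difference of 249039_at was 0.005 and the heat differences of 260919_at and 247618_at were 0.23 and 0.36. In WT alone, the heat differences were 0.53 for 267461_at, 0.73 for 266010_at, 0.14 for 266983_at, 0.053 for 247954_at and 0.39 for 245668_at. The cause was not tested. Across the members named by the rule, 2842 other treatment differences moved by less than the spread between replicates and 238 by more. Of the alternatives to the 6 genotype calls, 111 stayed past the threshold and 45 did not. Leaving out single arrays of the second series from the rule was chosen after seeing the data. Probe sets near background limit the low values.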
